A study of Rattus norvegicus with 7 samples.

Results

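The microRNAs (miRNAs) miR-199a-3p and miR-590-3p, both known for driving newborn rodent heart muscle cells to divide, were compared with each other directly, without the cel-miR-67 library of the series as a reference. The comparison took in the 12330 genes, of 17141 listed, whose average over the 7 libraries of the series reached 1 RPKM (reads relative to gene length and to a library size set by the authors). Of these, 11311 were protein-coding. Ventricular cardiomyocytes of wild type Wistar rats at postnatal day 0 received a single miRNA per culture (25 nM, by lipid transfection), and their RNA was collected 72 h later for mRNA sequencing. Each miRNA was represented by 1 library: miR-199a-3p, miR-590-3p, and the other 5, which received miR-1825, miR-33b*, miR-302d-3p, miR-373-3p or cel-miR-67 (a nematode miRNA). The cells are a primary culture prepared by leaving other cells to attach to plastic, and the labels describe the collected cells as mostly, not wholly, cardiomyocytes. Whether animals were pooled, and how many, is not given in the sources used here. With 1 library a side there are no replicates, so no difference below has a test, and every value describes these libraries rather than the conditions.

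A miRNA is a short RNA that guides Argonaute proteins to messenger RNAs, mostly by pairing of its seed near the 5′ end with the 3′ untranslated region, and the paired messenger RNA is broken down or poorly translated. Mammalian cardiomyocytes leave the cell cycle soon after birth, and both miRNAs are known for bringing newborn rodent cardiomyocytes back into DNA synthesis and mitosis. The mature sequence of the RefSeq rat entry of the first miRNA (GRCr8, chr13:77116294-77116315, plus strand, from the gene Mir199a2) is shown because its seed, in capitals, defines the set of messages it can pair with. The labels do not give the species or sequence of the transfected molecule.
rno-miR-199a-3p: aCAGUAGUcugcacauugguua

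The libraries of the 2 miRNAs were close to each other for most genes. The log2 difference, computed as log2 of (RPKM + 1) after miR-199a-3p over (RPKM + 1) after miR-590-3p, had a median of -0.01 and an SD across genes of 0.36, and 11288 genes (91.5%) lay within 1.5-fold. At least 2-fold higher levels after miR-199a-3p were found for 115 genes (0.933%), and at least 2-fold lower levels for 164 genes (1.33%). Among protein-coding genes these counts were 59 and 100, and in all 159 of them the exact 95% interval of the ratio of read rates left out 1. That interval (Clopper-Pearson, from reads recovered from the RPKM) covers counting error only. The genes were chosen by the same 2 values, so intervals that leave out 1 add no support to the calls. The other rows past 2-fold were mainly short RNAs with few reads, such as 26 higher and 27 lower of 293 small nucleolar RNA rows.

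**Figure D1:**
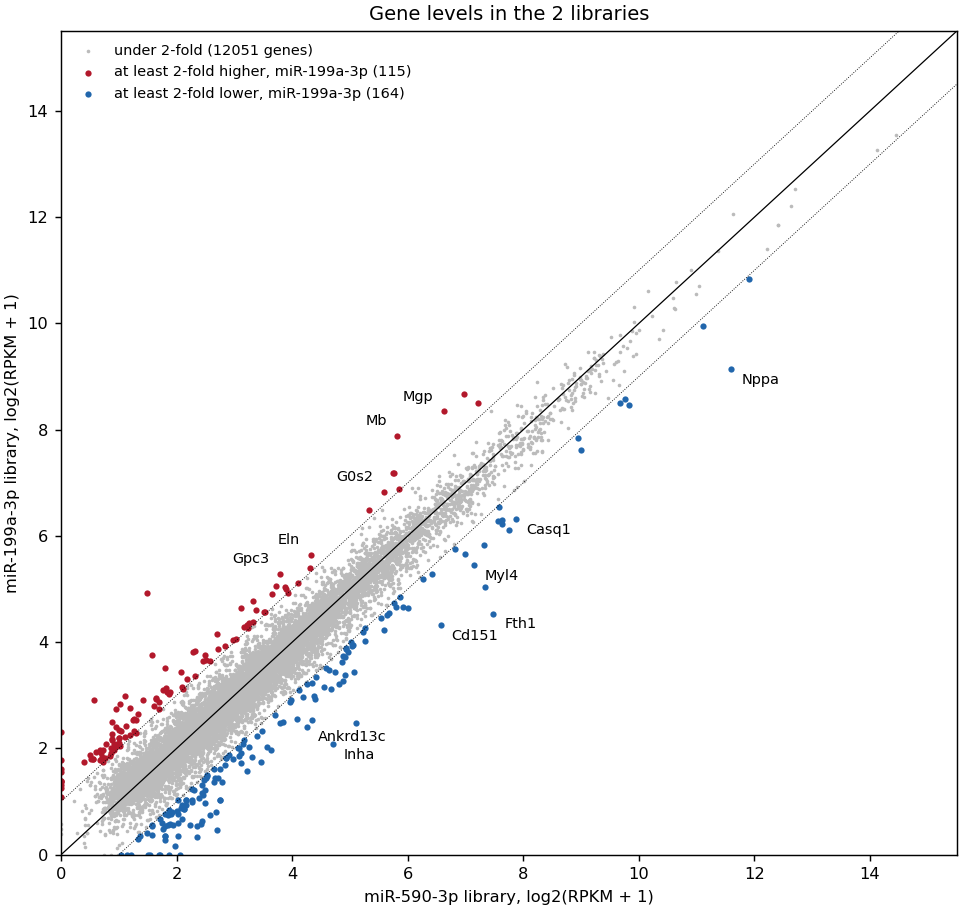
Level of each of the 12330 genes in the miR-590-3p library (x axis) and in the miR-199a-3p library (y axis), both as log2(RPKM + 1). The solid line marks equal levels and the dotted lines 2-fold. Red points are the 115 genes at least 2-fold higher after miR-199a-3p, blue points the 164 genes at least 2-fold lower, and Nppa and Fth1 lie far below the line at high levels.

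Among the 21 pairs of libraries this pair had the fifth smallest spread and 279 genes past 2-fold in either direction. For scale, the libraries of miR-302d-3p and miR-373-3p, which share a seed, differed past 2-fold in 52 genes (0.422%), with an SD of 0.22. The libraries of miR-590-3p and miR-1825 differed in 164 genes (1.33%), with an SD of 0.33. The pair of miR-302d-3p and miR-1825 differed most, in 555 genes. None of these pairs is a replicate.

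The balance of higher and lower genes depended on how the libraries are scaled. By the reads recovered from the RPKM, the listed genes held 23144651 reads after miR-199a-3p and 26468593 after miR-590-3p, against 22616067 to 31963293 over all 7 libraries. Mitochondrially encoded rows took 27.7% of the reads after miR-199a-3p and 41.4% after miR-590-3p, and the RPKM total of the former was 0.726 of the latter. The library sizes behind the RPKM were not the listed reads: they were 27055357 for miR-199a-3p and 24422719 for miR-590-3p, so the deposited values of miR-199a-3p are 1.27 times lower against those of miR-590-3p than the listed reads alone would give. As deposited, 41.2% of the genes past 2-fold were higher after miR-199a-3p. With RPKM totals made equal this became 85.8%, because that scaling raises every value after miR-199a-3p by 0.46 on the log2 scale and moves the median of all genes to 0.39. With listed reads made equal, a setting chosen after seeing the data, it was 76.5%. With totals made equal over genes that are not mitochondrial it was 51.8%, and with a pseudocount of 5 RPKM in place of 1 it was 30.9%. Gene groups are therefore read against the median of all genes, and a group is called higher or lower only where its median lies at least 0.2 from it. By that rule 11 lists were lower and 8 higher, and all 19 kept their side of the median of all genes with equal totals. As deposited, the medians of all 11 lower lists were below 0, from -0.97 to -0.24. With equal totals only 3 of the 11 (mitochondrially encoded, interferon and chemokine genes) stayed below 0. Under that scaling the directions of the others, mitotic and metabolic genes included, hold only relative to other genes. Equal non-mitochondrial totals raise the values after miR-199a-3p by only 0.098, and lists below 0 were not counted there. Counts of list members above or below 0 stand beside 48.7% above and 51.3% below over all genes tested. Ranks among the 7 libraries are as deposited and depend on the scaling, and their shares over all genes were not counted.

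As deposited, the largest differences among the named genes were lower levels after miR-199a-3p. With equal RPKM totals this order does not hold, and Mb (2.52) and Fth1 (-2.50) were nearly equal in size. Fth1, the heavy chain of the iron store ferritin, stood at 22.3 RPKM after miR-199a-3p and 178 RPKM after miR-590-3p, against 177 to 222 RPKM in the other 5 libraries. Its read rate was 8.0-fold lower after miR-199a-3p (95% interval 7.28 to 8.80), or 6.32-fold when set against the listed reads, while the miR-590-3p library lay inside the range of the others. Its neighbour in RefSeq, Best1, a chloride channel gene within 1 kb, stood at 4.57 against 33.3 RPKM. The 2 genes had RPKM ratios between 5.31 and 5.36 in 6 libraries and 4.87 after miR-199a-3p. After miR-199a-3p the Best1 row held 557 reads and Fth1 500, and after miR-590-3p they held 3664 and 3611. Best1 thus exceeded Fth1 by a similar, small number of reads in both libraries, and most of its reads may be those of Fth1. The Best1 row is therefore uncertain, and its difference is no result separate from Fth1. Both rows are still counted among the lower protein-coding genes. Inha, the alpha subunit of the hormone inhibin, stood at 3.23 RPKM after miR-199a-3p and 25.1 RPKM after miR-590-3p. The other 5 libraries ranged from 11.0 to 37.2 RPKM, all above the miR-199a-3p library.

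Nppa, the gene of atrial natriuretic peptide, was the most abundant of these genes, and the 2 libraries stood on opposite sides of the others. It reached 561 RPKM after miR-199a-3p, the lowest of the 7 libraries, and 3098 RPKM after miR-590-3p, the highest. The other 5 held 1649 to 3054 RPKM. The read rate was 5.52-fold lower after miR-199a-3p (5.42 to 5.63), with a log2 difference of -2.46. The B-type peptide gene Nppb followed the same order, at 354 RPKM after miR-199a-3p (lowest), 913 RPKM after miR-590-3p (highest) and 500 to 795 RPKM in the others. Corin, the membrane protease that cuts the precursor of atrial natriuretic peptide, had the opposite order, with 6.91 RPKM after miR-199a-3p, 1.16 RPKM after miR-590-3p and 0.554 to 2.78 RPKM in the others. Of 10 tested members of the list of natriuretic peptides and stress genes, 1 was past 2-fold higher and 2 lower, and the list median was -0.33, which came within 0.2 of all genes when no filter on low values was set and was -0.62 from it with a minimum mean of 5 RPKM. Npr3, the clearance receptor of these peptides, stood at 6.48 against 3.65 RPKM, within 2-fold.

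The reported targets of miR-199a-3p, a list of genes published as its targets in various cells, were lower in its own library. The list was written with earlier results of these data known, so its low median is no independent support for targeting. The list median was -0.33 over 16 tested members, against -0.01 over all genes, and 3 were past 2-fold lower and none higher. With a pseudocount of 5 RPKM the list came within 0.2 of the median of all genes. Cd151, a tetraspanin of the cell surface, stood at 19.01 RPKM after miR-199a-3p, 94.3 RPKM after miR-590-3p and 79.9 to 118 RPKM in the other 5. The difference was 4.96-fold (4.69 to 5.25), and the miR-590-3p library again lay among the others. The row LOC100911730 stood in nearly the same proportion to Cd151 in all 7 libraries. It held 32.0 RPKM after miR-199a-3p and 160 RPKM after miR-590-3p, a 5.01-fold difference. The 2 rows may therefore hold the same reads, and both are counted among the lower protein-coding genes. Pak4, a kinase of the actin cytoskeleton, stood at 2.57 against 8.85 RPKM, with 6.66 to 9.25 RPKM in the others. Clic5, a chloride channel protein that associates with actin and a reported target of both miRNAs, stood at 2.06 against 4.76 RPKM, with 4.61 to 5.96 RPKM in the others. By the log2 difference used here Clic5 was within 2-fold (-0.91). In Cd151, Pak4 and Clic5 the miR-199a-3p library alone stood below the rest. Cfl2, the other of the 3 targets past 2-fold lower, did not share this pattern and is described next.

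Cfl2, the muscle form of the actin-severing protein cofilin, is also a reported target of miR-199a-3p and was past 2-fold lower. It had the miR-590-3p library above the rest and the miR-199a-3p library among them. Against the median of the other 5, its log2 difference was -0.10 for miR-199a-3p and 1.30 for miR-590-3p. Its level was 74.1 RPKM after miR-199a-3p and 197 RPKM after miR-590-3p. The cel-miR-67 library came next to miR-590-3p with 155 RPKM, and the remaining 4 ranged from 58.2 to 109 RPKM, so that miR-199a-3p was the fifth of the 7. Tmsb4x, the actin monomer binder thymosin beta 4, stood at 361 RPKM after miR-199a-3p (lowest) and 811 RPKM after miR-590-3p (highest). The list of actin genes as a whole was not apart, with a median of 0.10 and 18 of 26 members above 0.

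The remaining reported targets were within 2-fold. Cd44, the hyaluronan receptor, was past 1.5-fold lower, at 11.6 against 18.1 RPKM, and Taok1, a kinase upstream of the Hippo pathway, stood at 23.9 against 32.5 RPKM. Mtor, the growth-control kinase, had a log2 difference of -0.29, Cav2, a caveolin, of -0.37, Ptgs2, a prostaglandin synthase, of -0.42, and Btrc, a ubiquitin ligase subunit, of -0.14. Crim1, Yes1 and Homer1 lay between -0.07 and 0.05. Itgb8 (0.21), Hopx (0.48) and Ets2 (0.63) were higher after miR-199a-3p. Homer1, a calcium-signalling scaffold, and Hopx, a homeodomain protein without DNA binding, are reported targets of both miRNAs. Homer1 stood at 8.12 RPKM after miR-199a-3p and 7.96 RPKM after miR-590-3p, the lowest 2 of the 7 libraries, against 9.27 to 11.4 RPKM in the others. Hopx stood at 23.3 against 16.4 RPKM, with miR-590-3p lowest of the 7 and miR-199a-3p inside the range of the others (17.6 to 30.0 RPKM). Seed sites were not searched, since transcripts with untranslated regions were not used here.

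The other genes among the 15 lowest spanned several roles. Scn3b, a sodium channel subunit, stood at 4.78 against 19.2 RPKM, and Casq1, a calcium-binding protein of the sarcoplasmic reticulum, at 78.7 against 233 RPKM. Myl4, the atrial light chain of myosin, stood at 42.6 against 141 RPKM. The Myl4 values spread widely elsewhere, from 45.6 RPKM after miR-1825 to 876 RPKM after miR-302d-3p and 838 RPKM after miR-373-3p. Coa5, an assembly factor of cytochrome c oxidase, stood at 9.91 against 32.7 RPKM, Bckdhb, a subunit of branched-chain keto acid dehydrogenase, at 7.72 (lowest of the 7) against 24.6 RPKM (highest), and Pon2, a paraoxonase of mitochondria and other membranes, at 2.34 against 10.0 RPKM. Perp, a desmosome-associated protein induced by p53, stood at 8.22 against 27.0 RPKM. Ankrd13c, Gpr146 and Tstd3 had log2 differences of -1.85, -1.66 and -1.63. In all 15 the miR-199a-3p library was the lowest of the 7, and in 13 the miR-590-3p library lay within 1.5-fold of the median of the other 5. The 15 genes were chosen by the difference between these 2 libraries, which favours a low rank of miR-199a-3p.

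**Figure D2:**
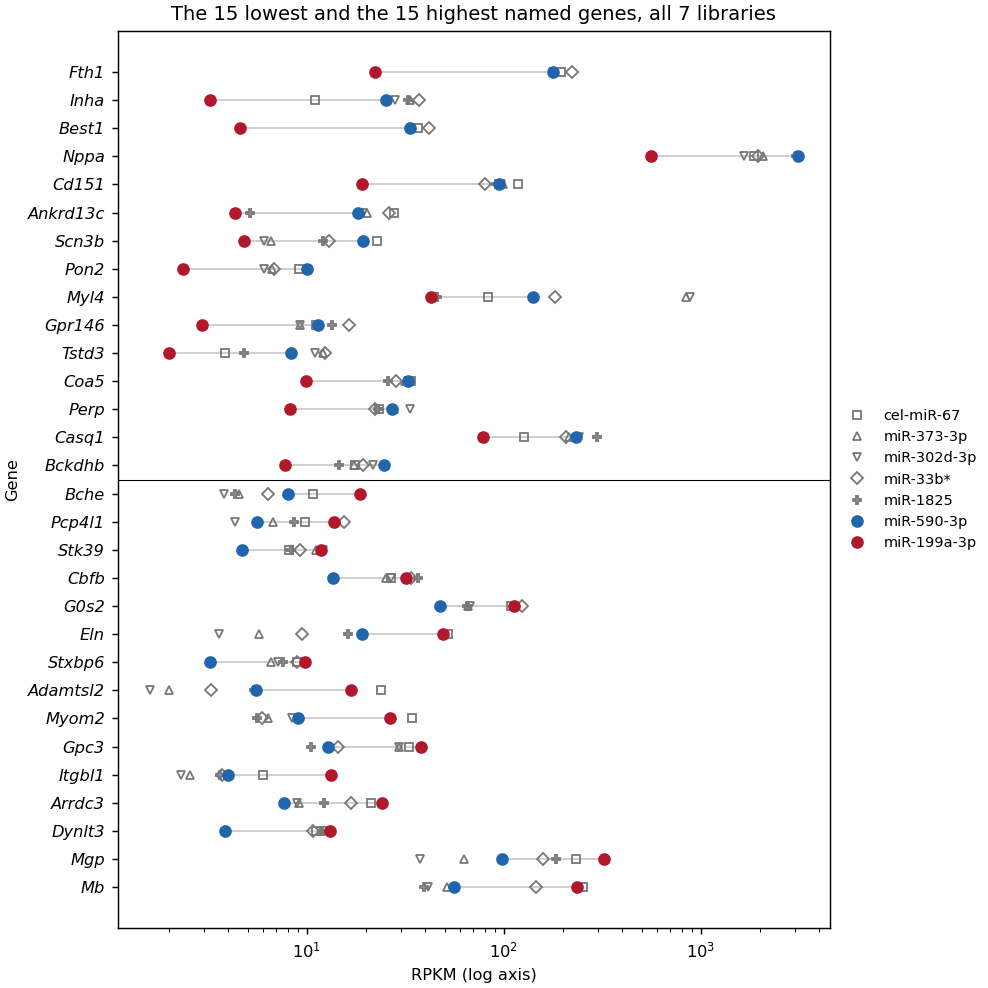
RPKM on a log axis of the 15 lowest genes (above the line) and the 15 highest genes (below it) by difference between the miR-199a-3p library (red) and the miR-590-3p library (blue), among protein-coding genes averaging 5 RPKM or more. Grey open symbols and crosses are the other 5 libraries. In the upper part of the plot red stands to the left of every other symbol, while below the line blue is at the left end in 6 genes.

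The 15 highest genes followed no single pattern across the other libraries. Mb, the oxygen-binding muscle protein myoglobin, stood at 235 RPKM after miR-199a-3p and 55.6 RPKM after miR-590-3p, a 4.22-fold difference (3.97 to 4.48). The cel-miR-67 library held 252 RPKM, the miR-33b* library 146 RPKM and the other 3 between 39.3 and 51.6 RPKM. The miR-199a-3p level was thus near that after cel-miR-67, and the miR-590-3p level near those 3. Myom2, an M-band protein of the sarcomere, stood at 26.4 against 9.02 RPKM, with 34.0 RPKM after cel-miR-67 and 5.56 to 8.44 RPKM in the remaining 4. Eln, the gene of elastin, stood at 48.9 against 19.1 RPKM, with 52.3 RPKM after cel-miR-67 and 3.58 to 16.1 RPKM in the remaining 4. Adamtsl2, a secreted protein of the elastic fibre matrix, stood at 16.7 against 5.49 RPKM, again with cel-miR-67 highest at 23.9 RPKM. In these 4 genes miR-199a-3p was second only to cel-miR-67.

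For another set the difference came with a low miR-590-3p library. Dynlt3, a light chain of the dynein motor, stood at 13.1 RPKM after miR-199a-3p, 3.86 RPKM after miR-590-3p and 10.7 to 12.04 RPKM in the other 5. Stxbp6, a SNARE-binding protein, stood at 9.79 against 3.20 RPKM, with 6.55 to 8.93 RPKM in the others. Cbfb, the partner of RUNX transcription factors, stood at 32.0 against 13.6 RPKM, with 25.2 to 36.7 RPKM in the others. Stk39, a kinase that regulates ion cotransport, stood at 11.7 against 4.66 RPKM, with 8.09 to 12.1 RPKM in the others. The miR-590-3p library was also the lowest for Arrdc3, an arrestin-like adaptor (24.0 against 7.66 RPKM), and G0s2, an inhibitor of lipid breakdown (113 against 47.2 RPKM). In both, however, miR-199a-3p lay farther from the median of the other 5. The log2 differences to it were 0.91 and -0.61 for Arrdc3, and 0.74 and -0.51 for G0s2, miR-199a-3p first.

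The miR-199a-3p library was the highest of the 7 for 7 of these 15 genes, a rank that the choice of genes favours. Itgbl1, an integrin-like secreted protein, stood at 13.2 against 3.97 RPKM, with 2.30 to 5.99 RPKM in the others. Bche, the gene of butyrylcholinesterase, stood at 18.6 against 8.03 RPKM, with 3.78 to 10.7 RPKM in the others. Mgp, an inhibitor of matrix calcification, stood at 324 against 98.2 RPKM, with 37.4 to 232 RPKM in the others. Gpc3, a cell surface proteoglycan, stood at 38.0 against 12.9 RPKM, with 10.4 to 33.1 RPKM in the others. Pcp4l1, a PCP4-like protein, was not among the 7, at 13.7 against 5.56 RPKM with miR-33b* highest at 15.4 RPKM. Of the 30 named genes, 13 overlap another RefSeq gene (for example Myl4 with Cdc27 and Coa5 with Unc50), and since the strand setting is not given, reads of such neighbours may be mixed.

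Over all 279 genes past 2-fold, the miR-199a-3p library stood apart more often than the miR-590-3p library. Apart here means at least 1.5-fold from the median of the other 5 libraries. The genes were chosen by the difference between these 2 libraries. That choice largely fixes that at least 1 of them stands apart, and it favours extreme ranks. The other 5 libraries entered the choice only through the filter on the mean over all 7. The share of all tested genes that stood apart was not counted, and the counts were made only as deposited. Across all tested genes the miR-199a-3p library was also the farther from the other 5. Its SDs to them were 0.38 to 0.47, against 0.33 to 0.42 for miR-590-3p. Of the 164 lower genes, 118 had only miR-199a-3p apart, 32 only miR-590-3p, 12 both and 2 neither. Of the 115 higher genes, 65 had only miR-199a-3p apart, 33 only miR-590-3p, 15 both and 2 neither. Among protein-coding genes the counts were 84, 9, 6 and 1 of 100 lower genes, and 42, 9, 7 and 1 of 59 higher genes. The miR-199a-3p library was the lowest of the 7 for 90 of the 100 lower protein-coding genes and the highest for 46 of the 59 higher ones.

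**Figure D3:**
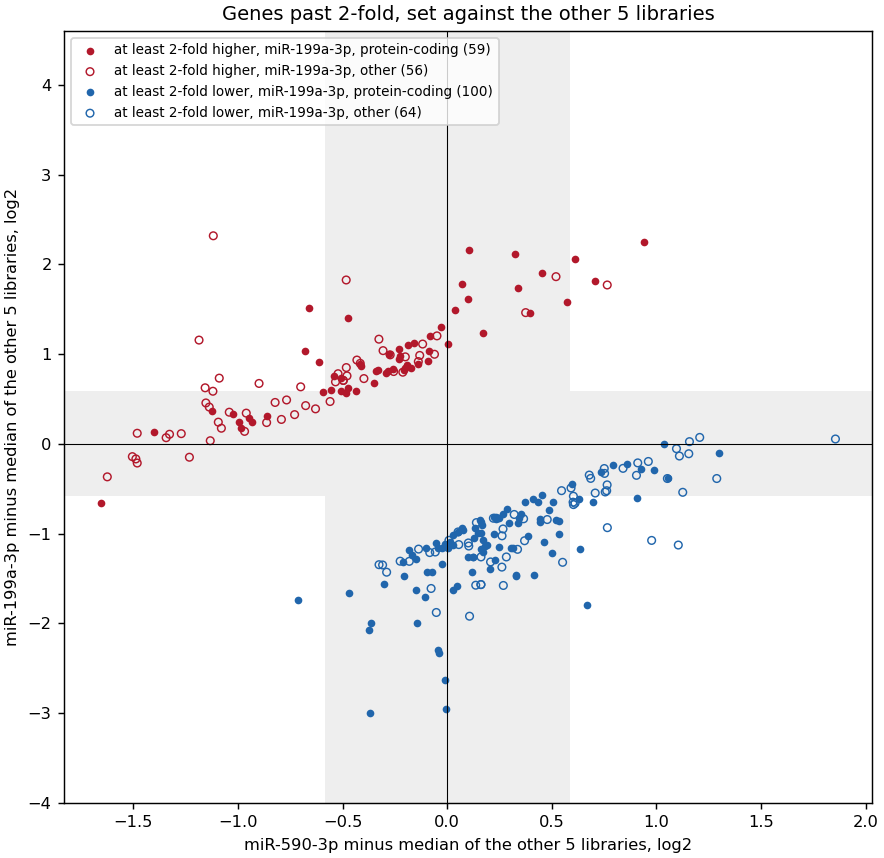
Each of the 279 genes past 2-fold, placed by the log2 difference of the miR-590-3p library (x axis) and of the miR-199a-3p library (y axis) to the median of the other 5 libraries. Grey bands mark 1.5-fold around 0, filled points are protein-coding genes and open points other rows. Most filled points lie in the vertical band and outside the horizontal one, where only the miR-199a-3p library is apart (84 of 100 lower and 42 of 59 higher).

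Genes of mitosis were lower after miR-199a-3p than after miR-590-3p, while genes of DNA replication were not. Of 29 tested genes of the G2 and M phases, 28 were below 0, the median was -0.38, and 1 was past 2-fold lower and none higher. Nek2, a kinase of centrosome separation, stood at 11.3 RPKM after miR-199a-3p and 28.2 RPKM after miR-590-3p, with 8.24 to 45.3 RPKM in the other 5. Aurka, the Aurora kinase of the spindle poles, stood at 10.1 against 20.2 RPKM, with 5.48 to 30.0 RPKM in the others, and Cenpa, the centromeric histone, at 4.81 against 9.33 RPKM. Birc5, the survivin subunit of the chromosomal passenger complex, stood at 12.6 against 20.9 RPKM, and Nuf2, of the outer kinetochore, at 12.8 against 20.1 RPKM. The miR-590-3p library was among the highest 2 of the 7 for 26 of the 29 genes, and the miR-1825 library was highest for 27. The miR-199a-3p library was the lowest of the 7 for none and among the lowest 2 for 7. No shares of these ranks over all genes were counted, so how unusual they are is not known. Against the median of the other 5 libraries, the list median was 0.08 for miR-199a-3p and 0.49 for miR-590-3p.

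Genes of cytokinesis, the final separation of daughter cells, had a like order, with 11 of 12 below 0, a median of -0.37 and none past 2-fold. Kif20b and Kif4a, kinesins of the spindle midzone, stood at 13.96 against 20.99 RPKM and 7.85 against 11.7 RPKM. Anln, an actin-binding protein of the contractile ring, stood at 42.8 against 58.4 RPKM, and Kif20a, another midzone kinesin, at 42.9 against 58.8 RPKM. All 12 members had miR-590-3p among the highest 2 libraries, a rank whose share over all genes was not counted. Against the median of the other 5, the list median was 0.30 for miR-199a-3p and 0.55 for miR-590-3p, so that both libraries lay above it.

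Replication genes had a median of 0.08 over 29 tested members, with 19 above 0. The miR-199a-3p library was the highest of the 7 for 17 of the 29, a rank whose share over all genes was not counted. Ccne2, the cyclin E2 that starts S phase, was the only member past 2-fold, with 19.4 RPKM after miR-199a-3p (highest), 8.56 RPKM after miR-590-3p (lowest) and 9.14 to 13.2 RPKM in the others. Its paralogue Ccne1 had the opposite order, at 5.67 against 8.26 RPKM, with miR-590-3p highest. Orc1 and Orc6, subunits of the origin recognition complex, stood at 5.37 against 3.29 RPKM and 12.8 against 9.29 RPKM. Pola1, the catalytic subunit of the primase polymerase, stood at 9.31 against 7.08 RPKM. Cdk4, a kinase of the G1 phase, stood at 123 against 90.4 RPKM, within a G1 list whose median was 0.13. Among cell cycle inhibitors (median -0.16, none past 2-fold of 16), Cdkn1c, the kinase inhibitor p57, stood at 3.26 against 1.22 RPKM and Gadd45a, a stress-induced growth arrest gene, at 15.4 against 25.0 RPKM. Genes induced by p53 had a median of -0.04, with Ccng1, cyclin G1, at 76.9 against 138 RPKM and 196 to 248 RPKM in the other 5.

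**Figure D4:**
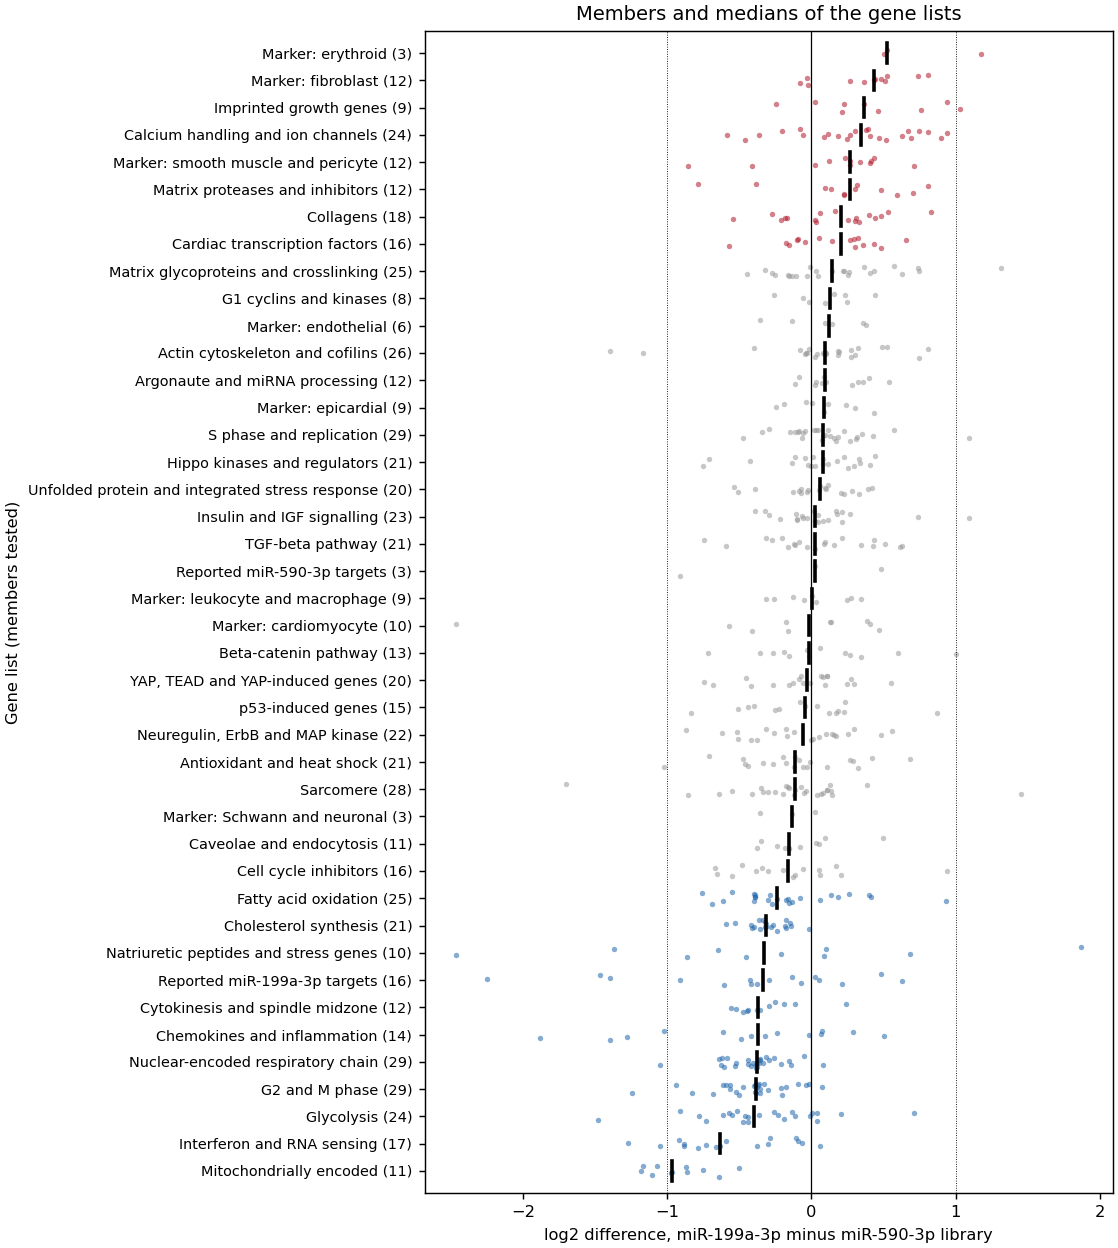
Log2 difference of each tested member of the 42 gene lists, miR-199a-3p minus miR-590-3p, with the list median as a black bar and the number of members tested in brackets. Coloured lists have a median at least 0.2 from that of all genes (-0.01), blue for lower and red for higher. Dotted lines mark 2-fold, and the vertical scatter within a list carries no meaning.

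Genes of energy metabolism were lower after miR-199a-3p across several pathways. All 11 tested genes encoded in mitochondrial DNA were below 0, with a median of -0.97 and 4 past 2-fold lower. Mt-co1, a core subunit of cytochrome c oxidase, stood at 9813 RPKM after miR-199a-3p and 17892 RPKM after miR-590-3p, with 10556 to 18554 RPKM in the others. Mt-nd1, a subunit of complex I, stood at 227 against 491 RPKM, with 426 to 542 RPKM in the others. The overlapping genes Mt-atp6 and Mt-atp8 cannot be separated with certainty. Of 29 nuclear-encoded genes of the respiratory chain, 28 were below 0, with a median of -0.38. Sdha, the flavoprotein of complex II, was the member past 2-fold, with 92.2 against 191 RPKM and 114 to 203 RPKM in the others. Uqcrfs1, the Rieske protein of complex III, stood at 153 against 240 RPKM and Cox5a, of complex IV, at 161 against 249 RPKM. As deposited, the miR-199a-3p library was the lowest or second lowest of the 7 for 26 of the 29 genes. The share of such ranks over all genes was not counted. With equal RPKM totals the median of the nuclear-encoded list became 0.08 while that of all genes became 0.39, so the list stayed below the other genes but not below 0. The part played by scaling and by the lower share of mitochondrial reads in these values was not tested.

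Genes of glycolysis had a median of -0.40, with 19 of 24 below 0 and 1 past 2-fold lower. Pfkp, the platelet form of phosphofructokinase, stood at 55.9 RPKM after miR-199a-3p and 158 RPKM after miR-590-3p, with 129 to 187 RPKM in the other 5, a 2.83-fold difference (2.72 to 2.94). Its liver paralogue Pfkl stood at 14.0 against 27.3 RPKM. Tpi1, triose phosphate isomerase, stood at 261 against 434 RPKM and Ldha, the muscle lactate dehydrogenase subunit, at 490 against 748 RPKM. Pgam2, the muscle phosphoglycerate mutase, was the member highest after miR-199a-3p, at 18.1 against 10.7 RPKM. Fatty acid oxidation had a median of -0.24 (7 of 25 above 0, none past 2-fold), which came within 0.2 of all genes with equal RPKM totals or equal listed reads. In that list Lpl, the lipoprotein lipase, stood at 69.6 against 36.0 RPKM, highest of the 7 libraries after miR-199a-3p, while Etfdh, which passes electrons from fat oxidation to the respiratory chain, stood at 20.7 against 35.7 RPKM. All 21 tested genes of cholesterol synthesis and its control were below 0, with a median of -0.31 and none past 2-fold, and with a pseudocount of 5 RPKM the list lay -0.20 from all genes. Insig1, the sterol sensor partner, stood at 30.9 against 47.1 RPKM and Fdps, farnesyl diphosphate synthase, at 35.7 against 52.0 RPKM.

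Genes of the interferon response, which cells also raise against foreign RNA, were lower after miR-199a-3p. Of 17 tested members 16 were below 0, the median was -0.64, and 2 were past 2-fold lower and none higher. Relative to all genes the median was -0.63, and it was -0.33 with a pseudocount of 5 RPKM and -0.42 without the filter. Mx2, an antiviral GTPase, stood at 1.74 RPKM after miR-199a-3p and 5.59 RPKM after miR-590-3p, with 3.79 to 9.81 RPKM in the others. Usp18, which removes the ISG15 modifier, stood at 2.51 against 6.27 RPKM and Isg15 itself at 1.80 against 4.30 RPKM. Levels were low throughout, and the miR-199a-3p library was the lowest of the 7 for 11 of the 17, with no share over all genes counted. Chemokine and inflammation genes had a median of -0.37, with 4 of 14 past 2-fold lower and none higher. With a pseudocount of 5 RPKM or no filter on low values this median came within 0.2 of that of all genes. Ccl2 and Ccl7, which attract monocytes, stood at 6.95 against 19.9 RPKM and 0.739 against 5.40 RPKM, Cxcl1, which attracts neutrophils, at 0.399 against 2.39 RPKM, and Sod2, the mitochondrial superoxide dismutase, at 14.98 against 31.5 RPKM. In each of these 4 genes miR-199a-3p was the lowest library, and miR-590-3p was the highest or second highest.

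The list of calcium handling and ion channel genes was higher after miR-199a-3p, with a median of 0.34, 18 of 24 above 0 and none past 2-fold. The list does not hold every gene of this kind: Scn3b and Casq1, described above, and Kcne1, a potassium channel subunit at 0.126 RPKM (2 reads) against 2.94 RPKM (42 reads), are outside it and were past 2-fold lower. Kcne1 was chosen after its values were seen. Gja1, the gap junction protein connexin 43, stood at 89.3 RPKM after miR-199a-3p (highest), 46.0 RPKM after miR-590-3p (lowest) and 58.0 to 80.0 RPKM in the others. Gja5, connexin 40, stood at 12.1 against 6.01 RPKM, and Kcnj2, the inward rectifier potassium channel, at 11.9 against 6.36 RPKM. Atp2a2, the calcium pump of the sarcoplasmic reticulum, stood at 479 against 301 RPKM, with 316 to 422 RPKM in the others. For both Gja1 and Atp2a2 the miR-199a-3p library was thus above all others and the miR-590-3p library below. Against the median of the other 5, the list median was 0.22 for miR-199a-3p and -0.19 for miR-590-3p. Cardiac transcription factors had a median of 0.20, at the edge of the band, with Irx4, a ventricular homeobox factor, at 13.1 against 7.96 RPKM and Nkx2-5, an early cardiac factor, at 26.3 against 39.5 RPKM. That median came inside the band with a pseudocount of 5 RPKM and without the filter.

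Sarcomere genes as a list were not apart, with a median of -0.12 over 28 members and 1 past 2-fold in each direction, Myl4 lower and Myom2 higher. Des, the intermediate filament desmin, stood at 388 against 703 RPKM and Csrp3, a Z-disc protein, at 189 against 294 RPKM, both lowest of the 7 after miR-199a-3p. Myh6, the alpha heavy chain of myosin, had a log2 difference of 0.39.

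Of the 3 lists of matrix genes, 2 were higher after miR-199a-3p. The list of matrix glycoproteins and crosslinking enzymes was not, with a median of 0.15, 15 of 25 above 0 and 1 past 2-fold higher, Eln. Collagens had a median of 0.21, with 13 of 18 above 0 and none past 2-fold, and this came within the band with a minimum of 5 RPKM or with protein-coding genes alone. Col3a1 stood at 348 against 249 RPKM and Col5a1 at 54.9 against 37.7 RPKM, both highest of the 7 after miR-199a-3p. Matrix proteases and their inhibitors had a median of 0.27, with Timp2, a metalloproteinase inhibitor, at 52.6 against 31.9 RPKM. Imprinted growth genes had a median of 0.36, with 8 of 9 above 0 and 1 past 2-fold, and lay 0.22 above all genes with a pseudocount of 5 RPKM and 0.23 without the filter. Peg3, a zinc finger gene expressed from the paternal allele, stood at 15.6 against 7.13 RPKM, and Mest at 31.5 against 18.2 RPKM, with miR-590-3p lowest of the 7 in both. Peg3 has an antisense partner in the table, Apeg3, and without a strand setting their reads cannot be told apart. Against the other 5 libraries, the median of the imprinted list was below 0 for both miRNAs, -0.21 for miR-199a-3p and -0.44 for miR-590-3p.

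**Figure D5:**
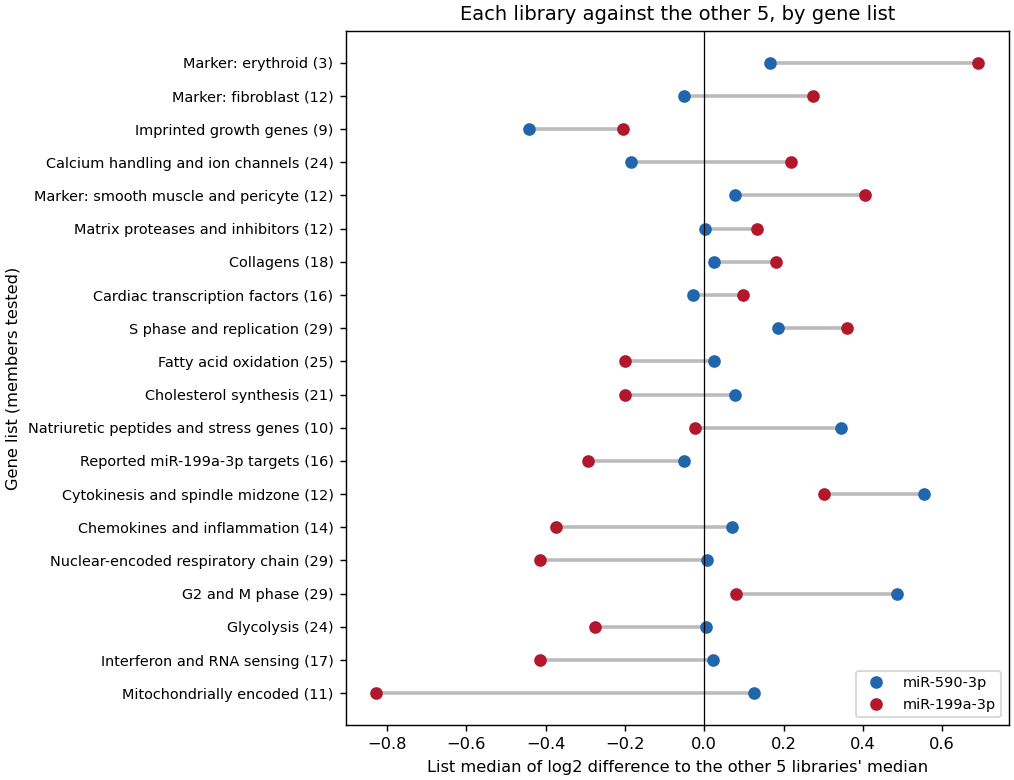
For the 19 lists with a median at least 0.2 from that of all genes, and for the replication list, the list median of the log2 difference to the median of the other 5 libraries, for miR-199a-3p (red) and miR-590-3p (blue). The grey bar joins the 2 libraries. Mitotic genes stand at 0.08 and 0.49, nuclear-encoded respiratory genes at -0.41 and 0.01, and mitochondrially encoded genes at -0.83 and 0.13.

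Markers of other cell types moved with some of these differences. The markers of fibroblasts had a median of 0.44 over 12 tested, 9 of them above 0 and none past 2-fold. Their summed level over 13 genes was 1212 RPKM after miR-199a-3p, 861 RPKM after miR-590-3p and 543 to 1167 RPKM in the other 5, and none was at 0. Thy1, a fibroblast surface protein, stood at 19.1 against 10.5 RPKM and Dcn, the matrix proteoglycan decorin, at 19.1 against 11.0 RPKM. The summed level of 10 cardiomyocyte markers was 15091 RPKM after miR-199a-3p, below the other libraries, and 19445 RPKM after miR-590-3p, against 18732 to 20584 RPKM, so the labelled cell type was clearly present in both. The list median was -0.02, with 5 members above 0 and 5 below. Without Nppa the sums were 14530 and 16346 RPKM, against 16687 to 18724 RPKM in the others. The part that the fibroblast share plays in the matrix values was not tested, and in bulk RNA fewer cells of a type and less RNA per cell cannot be told apart. Smooth muscle markers had a median of 0.27, but their sum was slightly lower after miR-199a-3p (1606 against 1735 RPKM, with 1284 to 1949 RPKM in the others). Sums of endothelial markers (22.8 against 18.9 RPKM), leukocyte markers (26.6 against 24.6 RPKM), epicardial markers (50.0 against 47.1 RPKM) and Schwann and neuronal markers (7.15 against 8.96 RPKM) were low. Erythroid markers summed to 10.1 against 5.18 RPKM, with 4.58 to 7.18 RPKM in the others and Hemgn at 0 after miR-199a-3p.

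Signalling lists were not apart between the 2 miRNAs. Kinases and regulators of the Hippo pathway, which restrains cell number through YAP, had a median of 0.08 with none of 21 past 2-fold. Within it Stk38l, an NDR kinase, stood at 17.8 against 30.7 RPKM and Fbxw11, a beta-TrCP ubiquitin ligase subunit, at 6.58 against 11.4 RPKM, both lowest of the 7 after miR-199a-3p, while the core kinase gene Lats1 stood at 7.21 against 5.19 RPKM. YAP, TEAD factors and YAP-induced genes had a median of -0.03, the TGF-beta pathway 0.03, insulin and IGF signalling 0.03, neuregulin, ErbB and MAP kinase genes -0.06 and the beta-catenin pathway -0.02. Single members stood out in some of them: Igfbp4, an IGF-binding protein, at 14.2 against 6.13 RPKM, Dkk3, a secreted Dickkopf family protein, at 29.3 against 14.1 RPKM, and Map2k1, the kinase MEK1, at 15.2 against 28.5 RPKM. The unfolded protein response had a median of 0.06, antioxidant and heat shock genes -0.11, caveolae and endocytosis -0.15, and genes of miRNA processing 0.09, with Ago2, the slicing Argonaute, at 25.8 against 19.3 RPKM.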

How the data were processed

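The values deposited by the authors are RPKM of 17141 genes in 7 libraries; the single-sample files equalled the series table in 7 of 7. Per the submitters' processing notes, STAR 2.7, edgeR and the build Rnor_6.0 were used, in roles that are not stated. The read counter, the strand setting and the annotation were not given in the sources used here. Whole reads were recovered from the RPKM for 100% of rows (tolerance 0.002 to 0.05 reads) by a method tested on simulated data. The recovered reads and library sizes served for the counting intervals, read totals, mitochondrial read shares and the setting of equal listed reads. Levels and log2 differences as deposited did not use them. Differences used a pseudocount of 1 RPKM and genes averaging at least 1 RPKM across all libraries. Genes were named as the 15 highest and 15 lowest protein-coding genes past 2-fold that average at least 5 RPKM, up to 5 members per list and the reported targets; other members named within a list were chosen after their values were seen. The 42 lists (743 genes, 704 of them found and 640 tested) were written from general knowledge, and the comparison and lists were chosen with earlier results of these data known. Symbols were matched to RefSeq (GRCr8) only for neighbours and the sequence. Python 3.11.15, numpy 2.4.6, pandas 2.3.3, scipy 1.17.1 and matplotlib 3.10.9 were used.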

Additional observations from a re-analysis of the deposited data

How the results depend on the processing

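The counts of genes past 2-fold, 115 higher and 164 lower, became 203 and 297 with a pseudocount of 0.1 RPKM, 21 and 47 with a pseudocount of 5 RPKM, and 44 and 88 with a minimum mean of 5 RPKM. They were 404 and 67 with equal RPKM totals, 277 and 85 with equal listed reads (a setting chosen after seeing the data), 59 and 100 for protein-coding genes alone, and 57 and 92 where the counting interval lay wholly past 2-fold. At a 1.5-fold limit they were 411 and 631, and at a 4-fold limit 5 and 9. No filter (139 and 179), equal non-mitochondrial totals (141 and 131), a mean over the pair alone (115 and 163) and a median of 0 (116 and 162) stayed within 1.5 times. Of the 30 named genes 0 changed direction under the pseudocounts of 0.1 and 5, equal totals or a median of 0, and 6 came under 2-fold with the pseudocount of 5. Relative to all genes, 19 of 19 lists called higher or lower kept their side with equal totals, but only 3 of the 11 lower lists then had a median below 0. No paired analysis was possible because each miRNA has 1 library, and leaving out a replicate was not possible either. The low reads of short RNA rows limit those rows most. The seed site comparison was not run, for want of untranslated regions.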

Other observations

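Some genes of iron and lipid handling outside the lists are given here, chosen after their values were seen. Those past 2-fold were Tfrc, Scd1 and Scd2. Beside the low Fth1, the ferritin light chain gene Ftl1 stood at 291 RPKM after miR-199a-3p and 204 RPKM after miR-590-3p, with 208 to 297 RPKM in the other 5. Tfrc, the transferrin receptor that brings iron into cells, stood at 49.8 against 126 RPKM, the lowest of the 7 libraries, with 78.5 to 142 RPKM in the others. The iron regulatory protein genes Aco1 (18.6 against 17.9 RPKM) and Ireb2 (15.47 against 17.5 RPKM) were within 2-fold, as was Ftl1. Scd1 and Scd2, desaturases that make monounsaturated fatty acids, stood at 6.82 against 17.3 RPKM and 77.6 against 196 RPKM, and Scd2 ranged from 77.5 to 253 RPKM in the others. Nnat, an imprinted gene of the endoplasmic reticulum membrane, stood at 12.5 against 1.98 RPKM, with 2.34 to 4.41 RPKM in the others, a 6.30-fold difference in read rate (95% counting interval 4.81 to 8.39).

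Of 27 rows named SNORD113, a cluster of small nucleolar RNAs, 26 were higher after miR-199a-3p, 6 of them past 2-fold. Over all genes tested 48.7% were above 0, and 26 of 293 small nucleolar RNA rows, these included, were past 2-fold higher. They summed to 291 RPKM against 165 RPKM, from 669 and 342 reads, a ratio of 1.77 (1.55 to 2.02), with 103 to 253 RPKM in the other 5. Their reads are few and the copies near-identical, so single rows are uncertain and the 26 are not separate results.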
